A study of Mus musculus with 5 samples.

Results

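The nuclear-encoded subunits of respiratory complexes II to V form the machinery that takes up electrons from succinate, passes them to oxygen and makes ATP. Members were taken as the 32 genes whose symbol was on a given list of subunits, with 4 genes of complex II, 10 of complex III (the electron carrier cytochrome c included), 13 of complex IV and 5 of complex V. In the deposited table of 41128 rows, 34 rows carried a member symbol. The 2 extra rows were copies elsewhere in the genome, Gm10053 under the symbol Cycs and Gm11273 under the symbol Cox5b, and were kept apart. All 32 members had a mean of at least 10 normalized reads, the minimum set for the test.

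RNA was sequenced from cardiomyocyte nuclei of infarcted hearts of FVB mice aged 8 weeks, 7 days after the left anterior descending coronary artery had been tied off for good. Nuclei from frozen, microdissected tissue were stained for PCM-1, a centrosomal protein found around cardiomyocyte nuclei, and sorted. The border zone group, muscle next to the infarct, held the libraries of mice 32, 34 and 40. The remote group, muscle away from the infarct, held those of mice 40 and 43, so that both groups came from infarcted hearts, no group from an uninjured heart was used, and mouse 40 alone gave both regions.

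The respiratory chain sits in the inner mitochondrial membrane and is dense in heart muscle, which makes most of its ATP by oxidative phosphorylation. Complex II, succinate dehydrogenase, is shared with the citric acid cycle and feeds electrons into ubiquinone. Complex III hands them from ubiquinol to cytochrome c, complex IV (cytochrome c oxidase) from cytochrome c to oxygen, and complex V (ATP synthase) uses the proton gradient so formed to make ATP. Complexes III, IV and V also hold subunits encoded in the mitochondrial DNA, whereas all subunits of complex II are nuclear-encoded. Several subunits of complex IV exist as a form of heart and skeletal muscle and as a ubiquitous form.

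Library depth was 25014205, 21042257 and 18725791 reads in border zone mice 32, 34 and 40, and 13440421 and 11324539 in remote mice 40 and 43. At the depth of the shallowest library, 15843, 18288 and 19602 genes were expected in these border zone libraries against 22670 and 22386 in the remote ones, so the border zone libraries, those of mice 32 and 34 above all, held fewer genes. The 8 cardiomyocyte marker genes were read in every library and took 12.1% to 16% of the reads. Markers of other cell types (fibroblast, endothelial, mural, macrophage, lymphocyte, mesothelial and fat cells), summed per type, took at most 0.072% of a library each. Macrophage markers took 0.000408% to 0.00134% of border zone reads and 0.0024% and 0.00358% of remote reads, with 2 of 8 markers at 0 in each border zone library and 0 of 8 in the remote ones. Fibroblast markers took 0.0118% to 0.0231% of border zone reads and 0.0273% and 0.0239% of remote reads, with at most 1 of 8 at 0. Mesothelial markers went the other way, with 0.000272%, 0.000879% and 0.000812% of border zone reads and 0.000186% and 0.000141% of remote reads. Shares of endothelial, mural and lymphocyte markers overlapped between the groups. The part of these differences in the results was not tested. In sorted nuclei taken in bulk, fewer nuclei that transcribe a gene and less RNA per nucleus cannot be told apart.

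Transcripts of complexes II to V stood lower in border zone cardiomyocyte nuclei than in remote ones for 30 of the 32 genes, on the log2(normalized reads + 1) scale. The exceptions, both of complex IV and both lower once libraries were scaled by total count, were Cox6a2, the heart and muscle isoform of subunit 6a, and Cox8a, the ubiquitous isoform of subunit 8. Among all 14989 genes tested, 55.0% had a change below 0. The median log2 change of the 32 genes was -1.99, or -1.78 relative to the median of all tested genes (-0.21). By limma 0 of the 32 passed an adjusted p of 0.05 in either direction, as did 0.00% of all tested genes, and the smallest adjusted p among them was 0.17, that of Atp5c1. At an unadjusted p under 0.05, limma gave 15 of the 32 lower (background 7.87%) and 0 higher (background 10.2%), and edgeR on the recovered reads gave 14 lower (background 6.52%) and 0 higher (background 9.45%), with 0 past an adjusted p of 0.05. In the authors' deposited table, 3 of the 32 were lower at adjusted p under 0.05, against 1.98% of the genes with an adjusted p there, and 0 were higher (background 3.46%).

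The libraries of the groups did not overlap for 19 of the genes. For 17 of them every border zone library lay below every remote library, against 20.3% of all tested genes, and for Cox6a2 and Cox8a every border zone library lay above, against 18.9%. Summed over the 32 genes, transcripts made up 0.0125%, 0.0168% and 0.0355% of the reads in border zone mice 32, 34 and 40, and 0.0632% and 0.166% in remote mice 40 and 43. Such shares amount to total-count scaling, under which the median change of all tested genes was -1.59. In the deposited scaling the sums were 4946, 4357 and 5198 normalized reads in the border zone and 6414 and 13750 in remote muscle. On both scales the remote library of mouse 43 was the highest by a wide margin. Against remote mouse 40 it was higher for 29 of the 32 genes, with a median log2 difference of 1.15, where 50.4% of all tested genes were higher and their median difference was 0.01. Without remote mouse 43 the median of the 32 genes was -1.06 relative to that of all tested genes. Within mouse 40, the sole animal with both regions and without a replicate, 24 of the 32 genes were lower in the border zone (background 49.0%) and their median log2 difference was -0.68, against 0.02 for all tested genes.

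**Figure D1:**
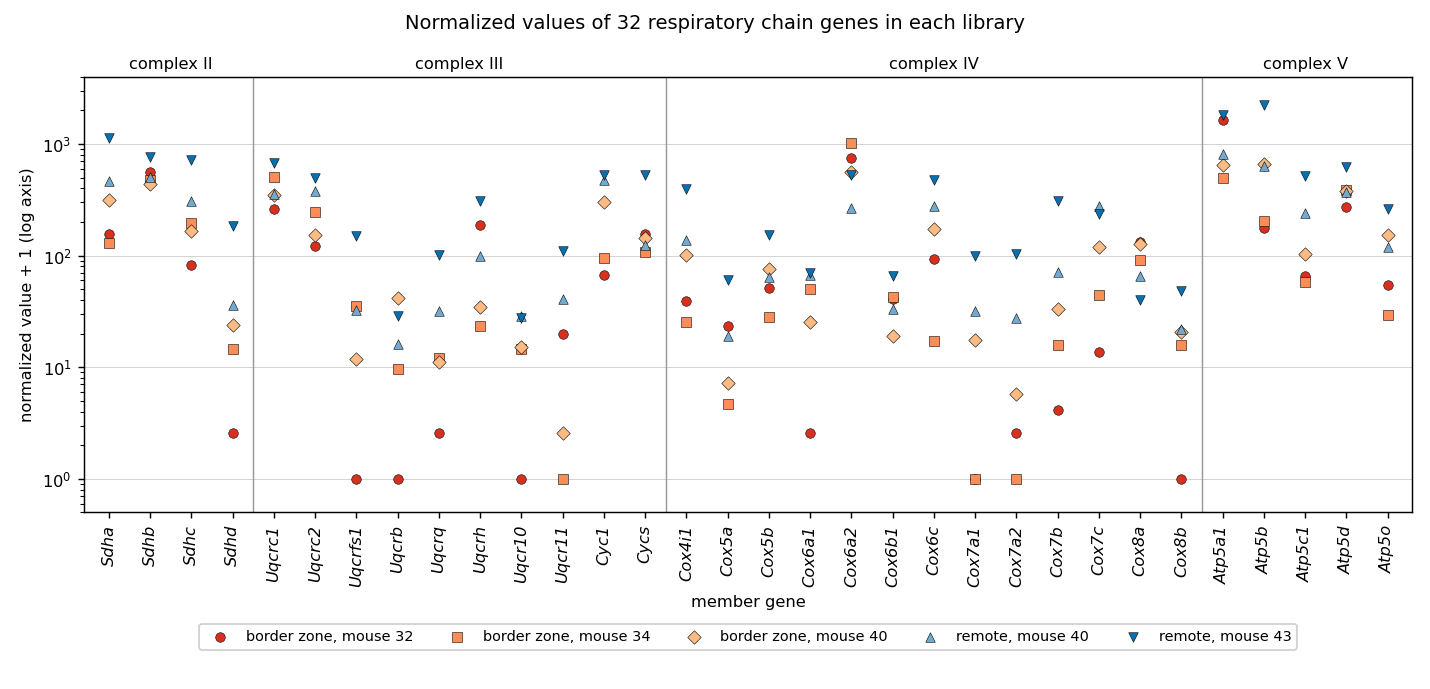
Normalized reads plus 1 on a log axis for the 32 genes, grouped by complex, with a point for each of the 5 libraries. For 17 genes the 3 border zone points all lie below the 2 remote points, and for Cox6a2 and Cox8a, lower under total-count scaling, all lie above; the point of remote mouse 43 lies above that of remote mouse 40 for 29 genes.

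**Figure D2:**
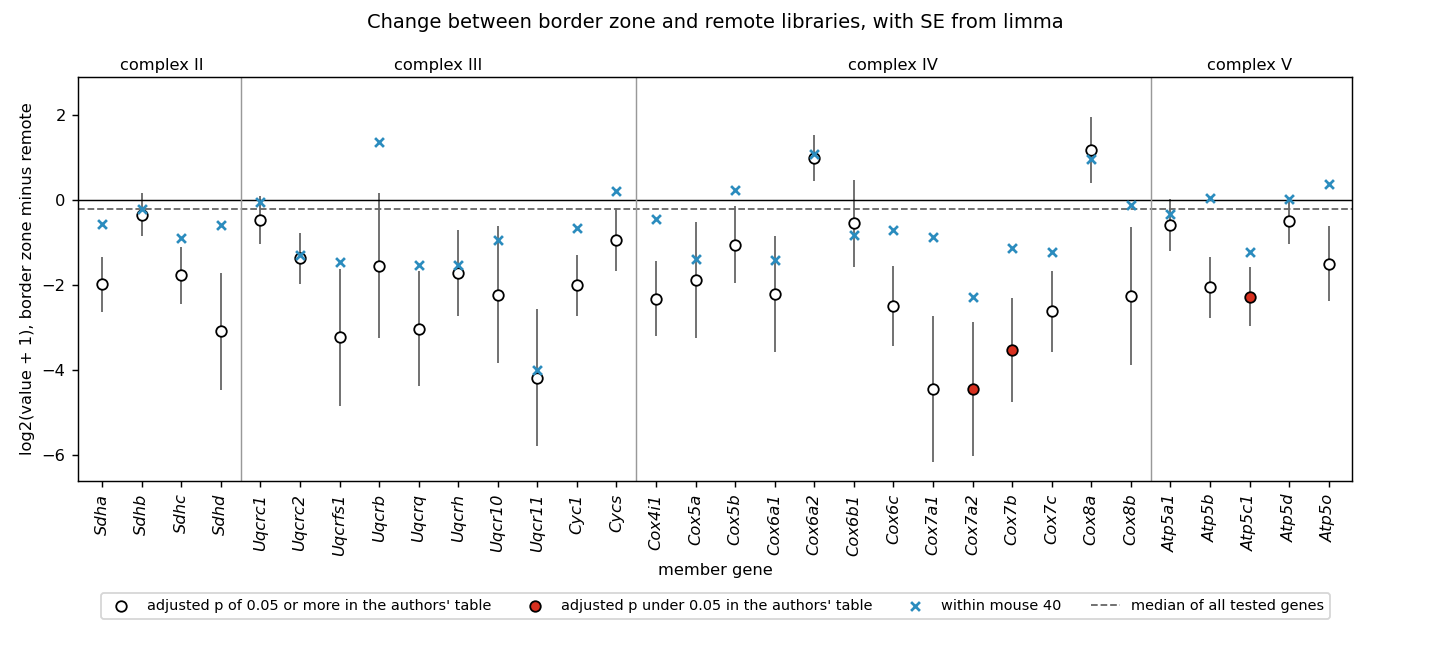
Log2 change of each gene, border zone minus remote, with the standard error from limma on 3 and 2 libraries (circles and bars), the difference within mouse 40 (crosses) and the median change of all tested genes (dashed line at -0.21). Filled circles mark Cox7a2, Cox7b and Atp5c1, the 3 genes with adjusted p under 0.05 in the authors' deposited table; 30 of the 32 circles lie below 0.

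The genes called lower in the authors' deposited table were Cox7a2 and Cox7b of complex IV and Atp5c1 of complex V. Cox7a2 encodes the ubiquitous isoform of subunit 7a (ENSMUSG00000032330, mm10 chromosome 9, 79755361 to 79759878, minus strand). It had 1.58, 0 and 4.69 normalized reads in the border zone and 26.4 and 102 in remote muscle, where the 3 border zone libraries held 1, 0 and 6 reads before scaling. Every border zone library was near 0 and below both remote ones, and the limma log2 change was -4.44 ± 1.57 (adjusted p = 0.199), with -4.83 (adjusted p = 0.019) in the authors' deposited table. Cox7b, a small subunit of complex IV whose reads may be shared with 2 near-identical copies (ENSMUSG00000031231, chromosome X, 106015700 to 106022450, plus strand), had 3.17, 14.8 and 32.1 normalized reads in the border zone and 71.0 and 309 in remote muscle. All border zone values were again below the remote ones, and the limma log2 change was -3.53 ± 1.22 (adjusted p = 0.192) beside -3.48 (adjusted p = 0.028) in the authors' deposited table. Atp5c1 encodes the gamma subunit, the central stalk that turns inside the ATP synthase head (ENSMUSG00000025781, chromosome 2, 10056016 to 10080510, minus strand), and had 65.0, 56.6 and 102 normalized reads in the border zone and 239 and 514 in remote muscle. Its border zone values, that of mouse 40 the highest, all lay below the remote ones. The limma log2 change of Atp5c1 was -2.27 ± 0.70 (adjusted p = 0.17) beside -2.33 (adjusted p = 0.027) in the authors' deposited table. Within mouse 40 the log2 differences were -2.27 for Cox7a2, -1.12 for Cox7b and -1.23 for Atp5c1.

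Which genes were called changed with the libraries entered. DESeq2 on the recovered reads gave the same 3 calls with all libraries, 0 of the 32 lower without border zone mouse 34 (background 1.32%) and 0 without remote mouse 43 (background 0.00%). The limma log2 changes of Cox7a2, Cox7b and Atp5c1 were -3.79, -3.67 and -2.10 without border zone mouse 34, and -3.48, -2.47 and -1.72 without remote mouse 43. DESeq2 gave Cox7b alone without remote mouse 40 (background 0.370%), and Cox7a2, Cox7b, Uqcr11 and Uqcrh without border zone mouse 32 (background 1.44%). Without border zone mouse 40 it gave 12 of the 32 (background 7.67%), among them Cox7a2, Cox7b and Atp5c1 together with Sdha, Sdhd, Cyc1 and Atp5b. With the libraries of mice 40 and 43 alone, Uqcr11 was the single member called (background 1.36%).

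Upstream sequences were searched for motifs, since nuclear respiratory genes are known as targets of nuclear respiratory factor 1 (NRF-1) and of ETS-family factors. RefSeq starts on GRCm38.p6, the assembly of mm10, were matched for 23 of the 32 genes, with 25 starts. The 250 bases before each start were searched on both strands. The NRF-1 core was searched as TGCGCA and stood in 4 of the 25 windows (16%, against 6.43% of 32851 windows of the same length), those of Sdha, Sdhd, Cox5b and Cox6a1. This core was taken in place of a longer form after matches of that form had been seen, so it was not fixed in advance. The ETS motif was searched as CCGGAAG and stood in 5 of 25 (20%, against 6.91%), those of Sdhd, Uqcr11, Uqcrh, Cox6a1 and Cox6b1. A TATA box, as TATAAA, stood in 0 of 25 (against 12.4%). An E-box, as CANNTG, stood in 15 of 25 (60%, against 66.2%). Each motif was searched on its own, so that matches of different motifs may share bases. Windows are shown 5′ to 3′ for the 3 genes called lower in the authors' deposited table, for 2 subunits of complex II that held NRF-1 matches, and for Cox8a, which stood higher. Capitals mark matches to the NRF-1 and ETS motifs; of the 2 starts of Atp5c1 the outer is shown. No RefSeq entry was matched for Cox6a2.
Sdha (chr13:74350241-74350490, minus strand): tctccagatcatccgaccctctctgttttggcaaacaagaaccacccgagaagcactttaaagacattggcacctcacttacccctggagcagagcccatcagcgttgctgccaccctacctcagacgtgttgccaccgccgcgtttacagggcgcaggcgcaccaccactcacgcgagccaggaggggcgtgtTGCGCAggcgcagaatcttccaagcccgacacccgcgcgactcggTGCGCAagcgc
Sdhd (chr9:50603850-50604099, minus strand): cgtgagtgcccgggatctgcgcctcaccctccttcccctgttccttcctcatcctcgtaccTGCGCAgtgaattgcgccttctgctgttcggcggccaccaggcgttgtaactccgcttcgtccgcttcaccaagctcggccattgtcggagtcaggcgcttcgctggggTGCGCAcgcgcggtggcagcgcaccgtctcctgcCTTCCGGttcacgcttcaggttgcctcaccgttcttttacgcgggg
Cox7a2 (chr9:79759854-79760103, minus strand): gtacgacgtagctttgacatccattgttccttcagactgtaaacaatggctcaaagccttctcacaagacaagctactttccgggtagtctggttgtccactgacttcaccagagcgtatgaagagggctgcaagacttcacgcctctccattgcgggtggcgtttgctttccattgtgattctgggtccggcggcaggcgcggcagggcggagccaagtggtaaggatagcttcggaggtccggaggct
Cox7b (chrX:106015450-106015699, plus strand): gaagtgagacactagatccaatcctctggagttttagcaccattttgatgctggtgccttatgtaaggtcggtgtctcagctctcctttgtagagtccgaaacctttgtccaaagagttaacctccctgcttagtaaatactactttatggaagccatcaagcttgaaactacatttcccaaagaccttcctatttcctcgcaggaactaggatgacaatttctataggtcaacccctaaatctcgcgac
Atp5c1 (chr2:10080511-10080760, minus strand): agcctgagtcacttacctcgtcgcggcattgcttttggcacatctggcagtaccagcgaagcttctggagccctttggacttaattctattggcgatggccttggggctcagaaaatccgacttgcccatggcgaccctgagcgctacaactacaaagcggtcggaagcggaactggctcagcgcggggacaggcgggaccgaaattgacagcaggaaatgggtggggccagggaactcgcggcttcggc
Cox8a (chr19:7217617-7217866, minus strand): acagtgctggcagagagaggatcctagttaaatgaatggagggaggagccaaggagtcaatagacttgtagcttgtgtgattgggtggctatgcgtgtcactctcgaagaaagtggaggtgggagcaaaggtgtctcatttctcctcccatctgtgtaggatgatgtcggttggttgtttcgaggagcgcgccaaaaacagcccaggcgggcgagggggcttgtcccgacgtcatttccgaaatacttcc
Sdha held 2 NRF-1 matches, the nearer of them 6 bases before the start. Sdhd held 2 NRF-1 matches, the nearer 75 bases before the start, and an ETS match 40 bases before it. The windows of Cox7a2, Cox7b, Atp5c1 and Cox8a held neither motif. Sdha and Sdhd were shown because they held NRF-1 matches, and 30 of the 32 genes stood lower. A relation between these motifs and the change was not tested.

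In complex II 4 of 4 genes had a change below 0 (background 55.0%) and 3 stood lower without overlap between groups (background 20.3%). The median was -1.66 relative to that of all tested genes. Sdha, the flavoprotein that oxidises succinate (ENSMUSG00000021577, chromosome 13, 74322254 to 74350280, minus strand), had 154, 128 and 314 normalized reads in the border zone and 466 and 1136 in remote muscle, a log2 change of -1.98 ± 0.64 (adjusted p = 0.176 by limma and 0.075 in the authors' deposited table). Border zone mouse 40 was the highest of its group for Sdha and still lay below remote mouse 40. Sdhb, the iron-sulfur subunit to which Sdha passes electrons, had 563, 473 and 439.7 normalized reads in the border zone and 505 and 767 in remote muscle. Its groups overlapped and its log2 change was -0.35 ± 0.50, with a 95% interval of -1.45 to 0.75. The membrane anchors that bind ubiquinone were Sdhc and Sdhd. Sdhc had 80.8, 197 and 164 normalized reads in the border zone and 308 and 721 in remote muscle, without overlap, and a log2 change of -1.77 ± 0.67 (limma adjusted p = 0.215). Sdhd had 1.58, 13.5 and 22.7 normalized reads in the border zone and 34.7 and 185 in remote muscle, where border zone mouse 32 held a single read, and a log2 change of -3.08 ± 1.37 (limma adjusted p = 0.265). Relative to all tested genes, the median of the complex was -1.05 without remote mouse 43 and -0.60 within mouse 40.

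In complex III with cytochrome c, 10 of 10 genes were below 0 (background 55.0%) and 5 stood lower without overlap (background 20.3%). The median was -1.65 relative to that of all tested genes. Uqcrc1 and Uqcrc2 encode the large core proteins, which face the matrix and carry no electrons. Uqcrc1 had 259.9, 502 and 345 normalized reads in the border zone and 359 and 679 in remote muscle, with overlap and a log2 change of -0.47 ± 0.57. Uqcrc2 had 122, 244 and 153 normalized reads in the border zone and 375 and 491 in remote muscle, without overlap, and a log2 change of -1.37 ± 0.60 (limma adjusted p = 0.26). Electrons move through the Rieske protein and cytochrome c1 to cytochrome c. Uqcrfs1, the Rieske iron-sulfur protein, was at 0 in border zone mouse 32, and its groups overlapped (log2 -3.23 ± 1.61). Cyc1, cytochrome c1 (ENSMUSG00000022551, chromosome 15, 76343523 to 76346260, plus strand), had 66.6, 94.7 and 298 normalized reads in the border zone and 473 and 528 in remote muscle, a log2 change of -2.01 ± 0.72 (limma adjusted p = 0.202). The remote values of Cyc1 lay close together, and border zone mouse 40 stood between them and mice 32 and 34. Cycs, cytochrome c itself, whose reads may be shared with 4 near-identical copies, had 155, 106 and 142 normalized reads in the border zone and 122 and 526 in remote muscle. Remote mouse 40 thus lay inside the border zone range and remote mouse 43 alone was high. The log2 change of Cycs was -0.93 ± 0.74, and without remote mouse 43 it was 0.12.

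The small accessory subunits of complex III were Uqcrb, Uqcrq, Uqcrh, Uqcr10 and Uqcr11, and their values were low. Uqcr11 had 19.0, 0 and 1.56 normalized reads in the border zone and 40.0 and 108 in remote muscle and a log2 change of -4.17 ± 1.60 (adjusted p = 0.217 by limma and 0.13 in the authors' deposited table). All border zone values of Uqcr11 lay below the remote ones, and border zone mouse 34 held no read. Uqcrq had 1.58, 11.1 and 10.2 normalized reads in the border zone and 31.0 and 101 in remote muscle, without overlap and with a log2 change of -3.02 ± 1.36. Uqcr10 was at 0 in border zone mouse 32 and did not overlap either (log2 -2.22 ± 1.60). Uqcrh, the hinge protein between cytochromes c1 and c, had 189, 22.1 and 33.6 normalized reads in the border zone and 98.9 and 308 in remote muscle, and border zone mouse 32 lay above remote mouse 40. Uqcrb had 0, 8.61 and 40.7 normalized reads in the border zone and 15.1 and 27.8 in remote muscle, and its highest library was that of border zone mouse 40. Its log2 change of -1.55 ± 1.70 turned to 0.95 with the libraries of mice 40 and 43 alone and to 1.37 within mouse 40.

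Complex IV held both of the genes that stood higher. Of its 13 genes 11 were below 0 (background 55.0%) and 8 stood lower without overlap (background 20.3%). The median was -2.04 relative to that of all tested genes. It was -1.22 with the libraries of mice 40 and 43 alone, -1.33 with a pseudocount of 10 in place of 1, and -0.84 within mouse 40. Cox4i1, whose product joins the mitochondrially encoded core early in assembly, had 38.0, 24.6 and 100.1 normalized reads in the border zone and 137 and 392 in remote muscle, without overlap, a log2 change of -2.32 ± 0.88 (limma adjusted p = 0.216). Cox5a and Cox5b, whose products lie on the matrix side of the enzyme, both overlapped, with log2 changes of -1.88 ± 1.37 and -1.05 ± 0.90. Among the small subunits, Cox7c had 12.7, 43.1 and 118 normalized reads in the border zone and 275 and 235 in remote muscle, without overlap, a log2 change of -2.62 ± 0.95. Cox6c had 91.9, 16.0 and 171 normalized reads in the border zone and 279 and 475 in remote muscle, also without overlap, and a log2 change of -2.49 ± 0.94. Border zone mouse 40 was the highest of its group for both. Cox6b1, the subunit that joins the monomers of the enzyme into a dimer, overlapped, with a log2 change of -0.54 ± 1.03.

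The isoform pairs of complex IV differed from each other in what stood higher. Cox6a2, the heart and muscle form of subunit 6a (ENSMUSG00000030785, chromosome 7, 128205435 to 128206387, minus strand), had 743, 1016 and 565 normalized reads in the border zone and 267 and 531 in remote muscle. Its border zone values all lay above the remote ones, though border zone mouse 40 did so by little against remote mouse 43, and its log2 change was 0.996 ± 0.54 (adjusted p = 0.346 by limma and 0.4 in the authors' deposited table). The ubiquitous form Cox6a1 had 1.58, 49.2 and 24.3 normalized reads in the border zone and 65.7 and 69.4 in remote muscle, a log2 change of -2.21 ± 1.37 (limma adjusted p = 0.406). The log2 ratio of Cox6a2 to Cox6a1 was 8.17, 4.34 and 4.49 in the border zone and 2.01 and 2.92 in remote muscle. All border zone ratios were higher, by 3.20 on average (two-sided exact permutation p = 0.2, where the smallest p that 3 against 2 libraries allow is 0.1), and by 1.95 without border zone mouse 32, where Cox6a1 held a single read.

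For subunit 8 the ubiquitous form was the one that stood higher. Cox8a (ENSMUSG00000035885, chromosome 19, 7215153 to 7217616, minus strand) had 132, 89.8 and 127 normalized reads in the border zone and 64.9 and 38.7 in remote muscle, without overlap, a log2 change of 1.17 ± 0.78 (adjusted p = 0.434 by limma and 0.34 in the authors' deposited table). The heart and muscle form Cox8b had 0, 14.8 and 19.6 normalized reads in the border zone and 21.1 and 47.5 in remote muscle, a log2 change of -2.25 ± 1.61 (limma adjusted p = 0.469). The log2 ratio of Cox8b to Cox8a was -7.05, -2.53 and -2.64 in the border zone and -1.57 and 0.29 in remote muscle. All border zone ratios were lower, with a mean difference of -3.43 (two-sided exact permutation p = 0.3, smallest possible p 0.1), and of -1.94 without border zone mouse 32, where Cox8b was at 0. Both Cox6a2 and Cox8a, higher in the deposited scaling and after TMM and quantile scaling, were lower when libraries were scaled by total count, with log2 changes of -0.43 and -0.24. Total-count scaling moved the median of all tested genes by -1.38, and relative to that median both genes stayed higher. Within mouse 40 the log2 differences were 1.08 for Cox6a2 and 0.95 for Cox8a.

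For subunit 7a both forms stood lower. Cox7a1, the heart and muscle form (ENSMUSG00000074218, chromosome 7, 30184144 to 30186078, plus strand), had 0, 0 and 16.4 normalized reads in the border zone and 31.0 and 97.9 in remote muscle, so that border zone mice 32 and 34 held no read of it. Its limma log2 change was -4.44 ± 1.72 (adjusted p = 0.219), almost that of Cox7a2 on this scale. In the authors' deposited table it was -3.50 (adjusted p = 0.19), against -4.83 for Cox7a2. The log2 ratio of Cox7a1 to Cox7a2 was -1.37, 0 and 1.61 in the border zone and 0.22 and -0.05 in remote muscle. In border zone mouse 34 neither gene held a read, so its ratio of 0 came from the pseudocount alone. Mouse 32 held 0 reads of Cox7a1 and 1 of Cox7a2, so mouse 40 alone of its group had reads of both. The border zone ratios lay on both sides of the remote ones and rested on 6 reads or fewer of Cox7a2 per library (two-sided exact permutation p = 1). With so few reads the test cannot tell whether the ratio differed between the groups.

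**Figure D3:**
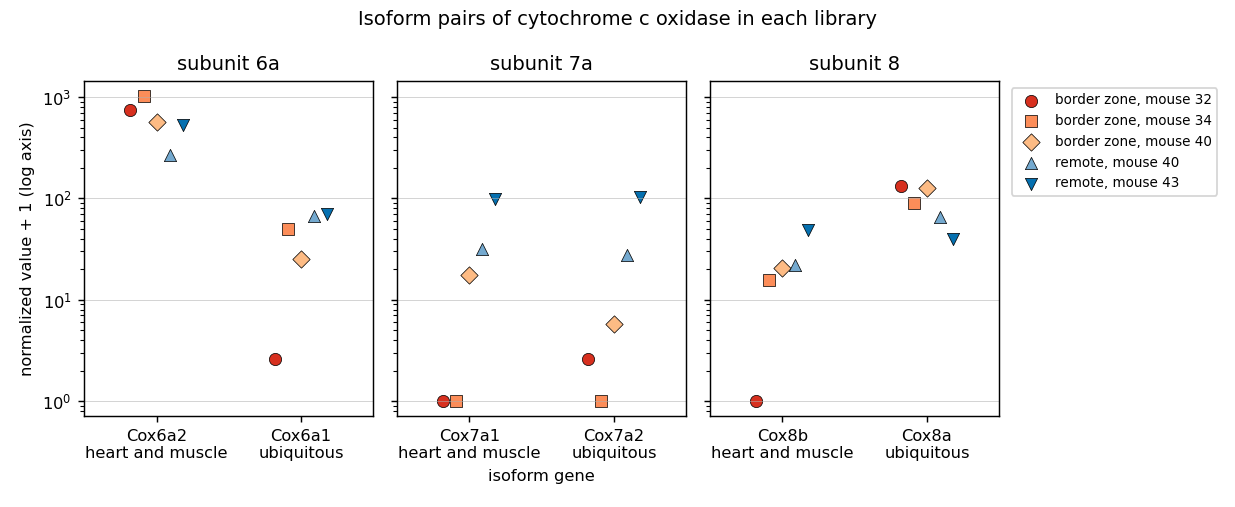
Normalized reads plus 1 on a log axis for the heart and muscle form and the ubiquitous form of subunits 6a, 7a and 8 of complex IV, with a point for each of the 5 libraries. On this scale, unlike total-count scaling, the border zone points lie above the remote ones for Cox6a2 and Cox8a, and on it they lie below them for Cox6a1, Cox7a1, Cox7a2 and Cox8b.

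In complex V 5 of 5 genes had a change below 0 (background 55.0%). Atp5c1 alone stood lower without overlap, 1 of 5 genes beside a background of 20.3%. The median was -1.29 relative to that of all tested genes. The head of the enzyme is built from alpha and beta subunits. Atp5a1, the alpha subunit, had 1631, 496 and 644 normalized reads in the border zone and 811 and 1799.5 in remote muscle. Its groups overlapped, border zone mouse 32 being nearly as high as remote mouse 43, and its log2 change was -0.59 ± 0.61. Atp5b, the catalytic beta subunit (ENSMUSG00000025393, chromosome 10, 128083273 to 128090391, plus strand), had 176, 204 and 657 normalized reads in the border zone and 640.2 and 2228 in remote muscle, a log2 change of -2.05 ± 0.71 (limma adjusted p = 0.194). Both libraries of mouse 40 had nearly the same value of Atp5b, a log2 difference of 0.04. The stalk subunit Atp5d had 273, 384 and 376 normalized reads in the border zone and 368 and 621 in remote muscle, with overlap and a log2 change of -0.49 ± 0.54. Atp5o, which links head and membrane part in the peripheral stalk, had 53.9, 28.3 and 153 normalized reads in the border zone and 118 and 263 in remote muscle, and border zone mouse 40 lay above remote mouse 40. Relative to all tested genes, the median of the complex was -0.73 without remote mouse 43 and -0.78 without border zone mouse 34. It was 0.01 within mouse 40, where 2 of the 5 genes were lower (background 49.0%).

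The order of the 4 complexes by median change, relative to all tested genes, turned with the setting. Complex IV was the most negative in the deposited scaling with all libraries, complex II with a pseudocount of 10 (-1.71 against -1.33 for IV) and after quantile normalization (-2.09 against -1.46), and complex III within mouse 40 (-1.13 against -0.84). Complex V was the least negative with all libraries, but without border zone mouse 32 complex III was (-1.26 against -1.30 for V). Differences between complexes were not tested, and the ranges of their genes overlapped, with log2 changes of -3.08 to -0.35 in II, -4.17 to -0.47 in III, -4.44 to 1.17 in IV and -2.27 to -0.49 in V. Across the 32 genes the Spearman correlation between log2 change and mean value was 0.50, with more negative changes at lower levels, against 0.34 across all 14989 tested genes. Genes share libraries and depth and are not independent, so both values describe these 5 libraries. By level, 10, 5 and 3 of the 32 genes were under 10 normalized reads in border zone mice 32, 34 and 40, and 0 in either remote library. Of the 32 genes 25 (78.1%) were read in every library, against 86.3% of all tested genes.

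Set against all genes in the same library, complexes II and V lay above the median gene in every library, and complexes III and IV below it in every library but remote mouse 43. The median of complex II lay 0.77, 1.09 and 1.47 above that of all tested genes in border zone mice 32, 34 and 40, and 2.15 and 3.08 above in remote mice 40 and 43. For complex IV this difference was -1.51, -1.55 and -1.32 in the border zone and -0.38 and 0.22 in remote muscle. Border zone and remote libraries did not overlap in this measure for complexes II, III and IV, whereas for complex V border zone mouse 40 (2.20) lay above remote mouse 40 (2.11).

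**Figure D4:**
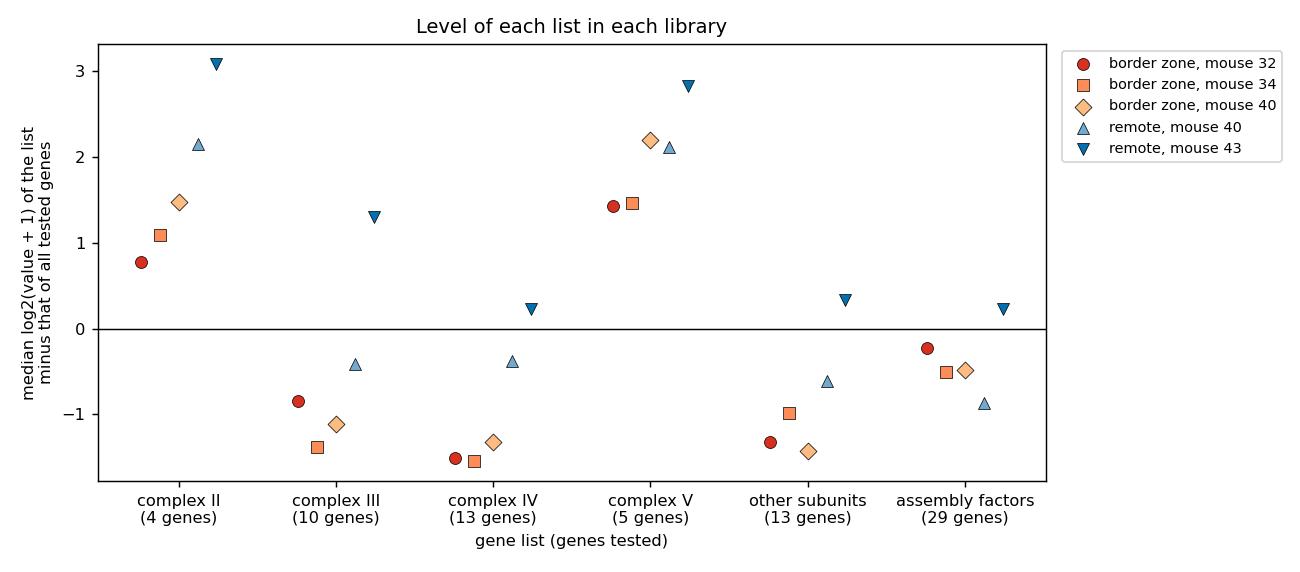
Median log2(normalized reads + 1) of each gene list minus that of all 14989 tested genes, in each of the 5 libraries. The remote library of mouse 43 is the highest for every list, and the border zone libraries lie below both remote ones for complexes II, III and IV and for the other subunits, but not for complex V or the assembly factors.

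Per kilobase of the longest transcript, the order of the genes differed between regions. In remote muscle the highest means were those of Atp5b (748 normalized reads per kilobase), Cox6a2 (587), Sdhb (516), Atp5a1 (488) and Cyc1 (419). In the border zone the order was led by Cox6a2 (1139), followed by Sdhb (399), Atp5a1 (345), Atp5d (244) and Cox8a (213). Atp5b was sixth there, at 180.5 normalized reads per kilobase, and Cox7a2 was last at 2.78. The spread of single libraries was wide. Cox6a2 had 1093, 1495 and 831 normalized reads per kilobase in the border zone and 393 and 781 in remote muscle, and Atp5b had 91.8, 107 and 343 in the border zone and 334 and 1163 in remote muscle.

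Further subunits of complexes IV and V formed a list of 18 genes beyond the 32. Of the 18, 13 were tested and 13 had a change below 0 on the log2(normalized reads + 1) scale (background 55.0%), with a median of -1.54 relative to that of all tested genes. By limma and edgeR 0 passed, 5 were lower at an unadjusted p under 0.05 by limma (background 7.87%), and 8 stood lower without overlap (background 20.3%). Of the 5 genes left out of the test because their values were low, Cox7b2 had 0, 39.4 and 0 normalized reads in the border zone and 0 and 0.731 in remote muscle, and Cox8c was at 0 in every library. Atp5f1, the b subunit of the peripheral stalk of ATP synthase, was the single gene of the list called lower in the authors' deposited table (background 1.98%), at a log2 change of -2.40 and an adjusted p of 0.027, with 77.7, 34.5 and 103 normalized reads in the border zone and 326 and 431 in remote muscle. Both remote values of Atp5f1 lay well above the highest border zone value, that of mouse 40. Ndufa4, first described in complex I and later found in complex IV, had 6.34, 0 and 3.13 normalized reads in the border zone and 24.9 and 58.5 in remote muscle, a log2 change of -3.65 ± 1.56 (limma adjusted p = 0.252). Usmg5, a small membrane subunit of ATP synthase, had a higher border zone mean despite a log2 change of -0.05 ± 1.82, with 0, 92.3 and 29.7 normalized reads in the border zone and 9.81 and 19.0 in remote muscle. Its log2 change in the authors' deposited table was 1.499 (adjusted p = 0.62), so that its direction turned with the scale.

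Assembly factors and related genes, listed together as assembly factors and not counted as subunits, were more mixed. Of 36 such genes 29 were tested, 24 with a log2 change below 0 (background 55.0%) and 5 above. Without overlap, 10 of the 29 stood lower (background 20.3%). The median was -1.19 relative to that of all tested genes (-0.68 without remote mouse 43). By limma and edgeR 0 passed, and 5 had an unadjusted p under 0.05 by limma, all lower (background 7.87%). Tmem70, which is needed to assemble ATP synthase, was the single gene called lower in the authors' deposited table (background 1.98%). Its log2 change there was -6.68, with an adjusted p of 0.0025. It had 0, 0 and 1.56 normalized reads in the border zone and 46.05 and 92.1 in remote muscle. It was read in border zone mouse 40 alone of its group, by 2 reads. Lrpprc, which stabilises mitochondrial messenger RNAs, had 399, 298 and 375 normalized reads in the border zone and 652 and 1341 in remote muscle, without overlap, a log2 change of -1.40 ± 0.53. Pet100, a factor of complex IV assembly, was the single tested assembly gene whose border zone libraries all lay above the remote ones (background 18.9%). It had 63.4, 124 and 91.5 normalized reads in the border zone and 20.4 and 32.9 in remote muscle. Its log2 change was 1.75 ± 0.89 (limma adjusted p = 0.316).

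The 6 measured partner subunits encoded in the mitochondrial DNA had changes above 0 in the deposited scaling. With total-count scaling 4 of them were below 0 (COX2 -0.40, COX3 -0.29, ATP6 -0.26 and ATP8 -0.66). The median of all tested genes was then -1.59, and relative to it all 6 stayed higher. Their RNA is made in mitochondria and not in the sorted nuclei, and how it came into these libraries was not tested. COX1, the catalytic subunit of complex IV, had 1683, 2068 and 1390.0 normalized reads in the border zone and 373 and 881 in remote muscle, a log2 change of 1.56 ± 0.52 (limma adjusted p = 0.183) that was 0.13 with total-count scaling. CYTB, the cytochrome b of complex III, had 807, 928 and 486 normalized reads in the border zone and 164 and 360.3 in remote muscle, a log2 change of 1.55 ± 0.57 (limma adjusted p = 0.209) that was 0.12 with total-count scaling. Border zone libraries lay above remote ones for COX1, CYTB and ATP6 (background 18.9%), and overlapped for COX2, COX3 and ATP8. Neither COX1 nor CYTB passed the threshold, and the difference between nuclear and mitochondrial genes of a complex was not tested.

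The 32 genes shared short transcripts and small gene bodies. The median longest transcript was 966.5 bases against 3014 for all tested genes, and the median gene span was 6230 against 19608 bases, while median GC content was 50.6% against 49.5%. They lay on 16 chromosomes. Near-identical copies of the coding sequence elsewhere in the genome, at 95% identity over at least 90% of its length, were found for 8 genes (Uqcrb, Uqcr11, Cycs, Cox5b, Cox6c, Cox7b, Cox7c and Atp5o), whose values are uncertain because reads may have been split between copies. All 8 had a change below 0, with a median of -2.02. The 24 genes without a copy had a median of -1.99, with 22 below 0 (background 55.0%). The copies of Cox7c summed to 4.75, 6.15 and 126 normalized reads in the border zone and 193 and 205 in remote muscle, and those of Cox7b to 0, 0 and 0.78 in the border zone and 20.4 and 39.5 in remote muscle. Those of Cycs summed to 312, 229 and 188 normalized reads in the border zone and 134 and 808 in remote muscle, above Cycs itself in every library. Exons of 9 genes (Uqcrc2, Uqcrb, Cox4i1, Cox5a, Cox6a2, Cox6c, Atp5a1, Atp5d and Atp5o) overlapped those of a gene on the other strand, and use of strand in the counting is not given in the sources used here. The overlapping partner of Cox6a2 was Itgad, an integrin gene of leukocytes, with 36.5, 196 and 69.6 normalized reads in the border zone and 186 and 190.0 in remote muscle. That of Atp5d was Cbarp, with 284, 133 and 130 normalized reads in the border zone and 50.6 and 0.731 in remote muscle, higher in the border zone without overlap. Opposite-strand partners of Uqcrb, Cox5a and Atp5o were lower there without overlap. The part of such overlaps in the values of these genes was not tested. Atp5o also shared exons with a second annotated gene of the same name on its own strand.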

How the data were processed

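Sorted nuclei gave RNA that was amplified to cDNA (input 500 pg), per the labels' protocols. The deposited values are a signal, the count of reads in a gene over the size factor of its library. STAR, DESeq2 and mm10 are named in the submitters' processing notes; for the read counter and gene models the source is not given. Divided by the lowest value of its library, every non-zero value came out whole (100% in each library, tolerance 0.01), so read counts could be recovered from the deposited table. The size factors were 0.63 (border zone mouse 32), 0.81 (mouse 34) and 1.28 (mouse 40), and 1.32 and 1.37 (remote mice 40 and 43). The log2 fold changes and p-values of the authors' deposited table are quoted as theirs, and DESeq2 run on the recovered reads made the same calls for the 32 genes.

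The main test was limma 3.58.1 (R 4.3.3), two-sided, on log2(value + 1), with trended variance and no term but group, for 14989 genes with a mean of at least 10, with Benjamini-Hochberg adjustment over all of them. Changes are differences of mean log values on that scale, and for low genes they lay on either side of those from DESeq2 (Uqcrb -1.55 against -0.36, Cox7a2 -4.44 against -4.83). Alternatives were DESeq2 1.42.0 (Wald test) and edgeR 4.0.16 (quasi-likelihood test after TMM) on recovered reads, other pseudocounts, filters and scalings, each library left out, and mouse 40 alone. A floor of 3 reads corresponds to 2.19 to 4.75 normalized reads, covering counting error only. Labels give no more than a mouse number per library, and p-values treat the libraries of mouse 40 as independent.

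The members and lists were chosen with earlier results of these data known. Values per library are given in the order border zone mice 32, 34 and 40, then remote mice 40 and 43. They are printed for members called in the authors' deposited table, for the highest mean and the largest and smallest change in each complex, for the isoform pairs, and for others picked after their values were seen. Gene positions are from GENCODE M21, and symbols were matched for 40254 of 41128 rows by Ensembl ID. Copies were found with BLAST 2.17.0. Group means per kilobase in a second deposited table were not used. The NRF-1 core was searched in place of a longer form after matches of that form had been seen.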

Additional observations from a re-analysis of the deposited data

How the results depend on the processing

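Of the values for single genes under the alternatives, 462 kept direction and stayed on the same side of an adjusted p of 0.05, 26 within mouse 40 kept direction and have no p, 10 turned direction, and 3 passed that threshold by DESeq2 alone; the cause of the changes that follow was not tested. Within mouse 40 the medians relative to all genes were -0.70 (32 genes), -0.60 (complex II), -0.84 (IV), 0.0107 (V) and -0.36 (assembly factors), and the Cox7a1 to Cox7a2 and Cox8b to Cox8a ratios changed by 1.39 and -1.06. There, changes above 0 were Uqcrb 1.37, Cycs 0.21, Cox5b 0.24, Atp5b 0.0378, Atp5d 0.0306 and Atp5o 0.37. With mice 40 and 43 alone, complex IV lay at -1.22, assembly factors at -0.65, Uqcrb at 0.95 and the Cox7a ratio at 1.53, and DESeq2 called 1 of the 32. Complex IV lay at -1.33 with a pseudocount of 10, -2.39 with a mean of at least 50, -1.46 after quantile normalization, -1.74 by DESeq2 and -1.71 once GC, length and level trends were removed (assembly factors -0.61). Under total-count scaling Cox6a2 was -0.43, Cox8a -0.24, 29 of the 32 stood lower without overlap, where 49.1% of all tested genes did (with a mean of at least 50, 10 of 21 against 17.0%), and 1 gene of all passed limma, as 1 did after quantile normalization. DESeq2 called 902 of all genes and 3 of the 32. The Cox7a ratio was 0.15 with a pseudocount of 10, 0.20 with total-count, 0.00396 with TMM and 0.035 with quantile scaling, and 1.34 by edgeR and 1.34 by DESeq2.

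Leaving out each replicate in turn gave medians of -1.05 to -2.28 (complex II), -1.26 to -2.45 (III), -1.49 to -2.61 (IV), -0.725 to -1.88 (V), -1.07 to -2.49 (other subunits) and -0.68 to -1.47 (assembly factors), 17 to 29 genes lower without overlap (against 25.6% to 33.7% of all tested genes; 29 without remote mouse 40, against 32.2%), Cox7a ratios of -0.77 to 0.72, 0 to 235 genes of all called by limma (235 without border zone mouse 40) and 0 to 12 of the 32 called by DESeq2. Cycs ran from -1.98 to 0.115 (0.115 without remote mouse 43). No paired analysis was possible because mouse 40 alone is in both groups, a term for the animal leaves no residual degrees of freedom, and limma could not estimate a correlation within animals. Of the 32 genes 7 were at 0 in at least 1 library, 5 of them in border zone mouse 32 and 3 in mouse 34, the deepest libraries, and 0 in the others.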
